A study of Mus musculus with 4 samples.

Results

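The mitochondrial biogenesis and dynamics genes were Tfam, Nrf1, Gabpa, Polg, Polrmt, Ppargc1b, Mfn1, Mfn2, Opa1 and Dnm1l, 10 of the 17710 features with a gene symbol among 19645 features in all. Their rows were taken by symbol and each was found, but the set was chosen with earlier results of these data known. RNA-seq of mouse embryonic stem cells (ESCs) gave 4 libraries, 2 of wild-type (WT) and 2 of Bmal1 KO cells, all grown on gelatin with the cytokine LIF. BMAL1, encoded by Arntl, is the transcription factor at the core of the circadian clock. The KO line was picked as a clone after CRISPR/Cas9 editing and carried a small frameshift deletion at the start codon of Arntl. The study calls the libraries biological duplicates, but the labels name no separate cultures or clones. The p-values therefore measure the spread between these samples only, and genotype cannot be told apart from the history of a single edited line or from other differences between the WT and KO cells. The study measured mitochondrial respiration in these cells, and the question here is which transcripts for making and shaping mitochondria differed between the genotypes.

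Most mitochondrial proteins are encoded in the nucleus. Nuclear respiratory factor 1 (NRF1) and GABPA, together with coactivators of the PGC-1 family such as PPARGC1B, drive transcription of many of them, including TFAM. TFAM packages mitochondrial DNA and with the RNA polymerase POLRMT starts its transcription, while POLG replicates it. The organelles fuse through the outer membrane GTPases MFN1 and MFN2 and the inner membrane GTPase OPA1, and divide through the cytosolic GTPase DNM1L. ESCs typically hold small, round mitochondria. Nrf1 here is nuclear respiratory factor 1 and not Nfe2l1, which shares the protein name.

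Upstream sequences are shown for Mfn1, Mfn2 and the members with a binding motif of the best known regulators, to let the reader see where these motifs stand. RefSeq promoter windows on GRCm38.p6, from 250 bases before to 50 after each start site, were found for 9 of the 10 genes, with 13 windows in all. On both strands, 3 motifs were searched: GCGCATGC, part of the palindrome that NRF1 binds, the ETS motif CCGGAAGT that GABPA binds, and the E-box CACGTG that BMAL1 binds. The following lines run 5′ to 3′ on the gene's strand and have any motif read on that strand in capitals. The first 4 end before the annotated gene, while the short lines for Tfam and Polg lie before the RefSeq start site but within the longer GENCODE gene span.
Mfn1, chr3:32529232-32529464, plus strand: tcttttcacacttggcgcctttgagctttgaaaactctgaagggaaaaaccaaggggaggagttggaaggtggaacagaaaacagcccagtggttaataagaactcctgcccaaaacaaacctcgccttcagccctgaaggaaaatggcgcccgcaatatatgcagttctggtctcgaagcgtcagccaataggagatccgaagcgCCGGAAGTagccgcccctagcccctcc
Mfn2, chr4:147904910-147905159, minus strand: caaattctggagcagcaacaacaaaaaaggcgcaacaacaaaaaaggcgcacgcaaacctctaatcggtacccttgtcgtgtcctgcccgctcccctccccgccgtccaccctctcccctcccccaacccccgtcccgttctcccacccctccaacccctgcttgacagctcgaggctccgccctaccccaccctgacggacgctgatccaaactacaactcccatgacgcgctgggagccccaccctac
Opa1, chr16:29579084-29579333, plus strand: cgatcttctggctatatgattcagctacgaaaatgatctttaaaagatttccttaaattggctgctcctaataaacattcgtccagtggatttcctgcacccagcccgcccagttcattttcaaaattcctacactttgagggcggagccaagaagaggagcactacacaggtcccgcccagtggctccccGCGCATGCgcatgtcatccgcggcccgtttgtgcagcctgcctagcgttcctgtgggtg
Polrmt, chr10:79746582-79746831, minus strand: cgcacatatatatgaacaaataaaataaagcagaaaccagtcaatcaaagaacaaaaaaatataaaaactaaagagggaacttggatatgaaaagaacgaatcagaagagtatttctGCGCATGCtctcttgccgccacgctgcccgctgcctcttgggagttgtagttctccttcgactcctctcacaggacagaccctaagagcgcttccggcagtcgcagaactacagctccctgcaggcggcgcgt
Tfam, chr10:71238073-71238102, minus strand: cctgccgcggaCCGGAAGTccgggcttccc
Polg, chr7:79466293-79466322, minus strand: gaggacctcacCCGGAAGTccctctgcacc

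The ETS motif CCGGAAGT was found upstream of Mfn1, Tfam and Polg, starting 44, 47 and 38 bases before the RefSeq start site. It occurs in 3.89% of all 32851 windows of 300 bases. GCGCATGC was found for Opa1, 59 bases before the start and again on the opposite strand overlapping it, and for Polrmt, 133 bases before the start, against 2.71% of all windows. The E-box CACGTG was in 0 of the 13 windows and in 7.15% of all windows. These matches describe letters in a window and are not measured binding sites.

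The targeted gene did not check the labels, since a small deletion need not lower its transcript. Arntl was at 6.05 and 6.29 FPKM, a fragment count per transcript length and library size, in WT and 5.95 and 5.92 in KO. The share of all FPKM held by features without a symbol was larger in WT, at 26.8% and 37.3%, than in KO, at 19.0% and 18.1%. Y-linked genes were higher in KO, with a summed level of 64.6 to 78.9 FPKM over 4 genes against 1.75 to 2.54 in WT. Whether the WT and KO cells were of the same parental line, or differ in their Y chromosome, was not tested, and in every value below genotype cannot be told apart from such a difference. The 12 pluripotency markers summed to 7231 to 7407 FPKM in WT and 6620 to 7058 in KO. Of their 13 tested features 1 rose and 3 fell, against 6.85% and 5.6% of all tested features. Primitive endoderm markers summed to 80.6 to 84.1 FPKM in WT and 65.8 to 67.2 in KO. Most of that sum was Sparc, at 63.5 and 61.7 FPKM in WT and 51.3 and 49.8 in KO. Sparc and Lamb1 fell, which is 2 of the 4 tested, against 5.6% of all tested features. Gata4 was lower and Col4a1 higher in KO without passing. Sox7 and Dab2, too low to be tested, were higher in KO, and Gata6, Sox17, Foxa2 and Pdgfra were near 0. The 6 fibroblast markers found summed to at most 2.997 FPKM in any library, with Col1a2, Col3a1 and Dcn near 0. The part of these differences in the results below was not tested.

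The 10 genes were all expressed in ESCs, over a wide range of levels. Dnm1l, the fission GTPase, was the most abundant, and its level placed it at percentile 83.8 of the tested features. Gabpa followed, at percentile 78.0, and its range over the 4 libraries lay below that of Dnm1l and above that of the next gene. Tfam, Nrf1, Mfn1, Polrmt, Opa1 and Polg came next, between percentiles 72.4 and 63.8, and in that order neighbouring genes overlapped in their libraries. Mfn2 lay apart below them at percentile 48.0, and the coactivator Ppargc1b was lowest at percentile 27.5, with ranges that overlapped neither each other nor the genes above. FPKM are corrected for transcript length, so these levels can be set beside each other, within the limits of the transcript models used.

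**Figure D1:**
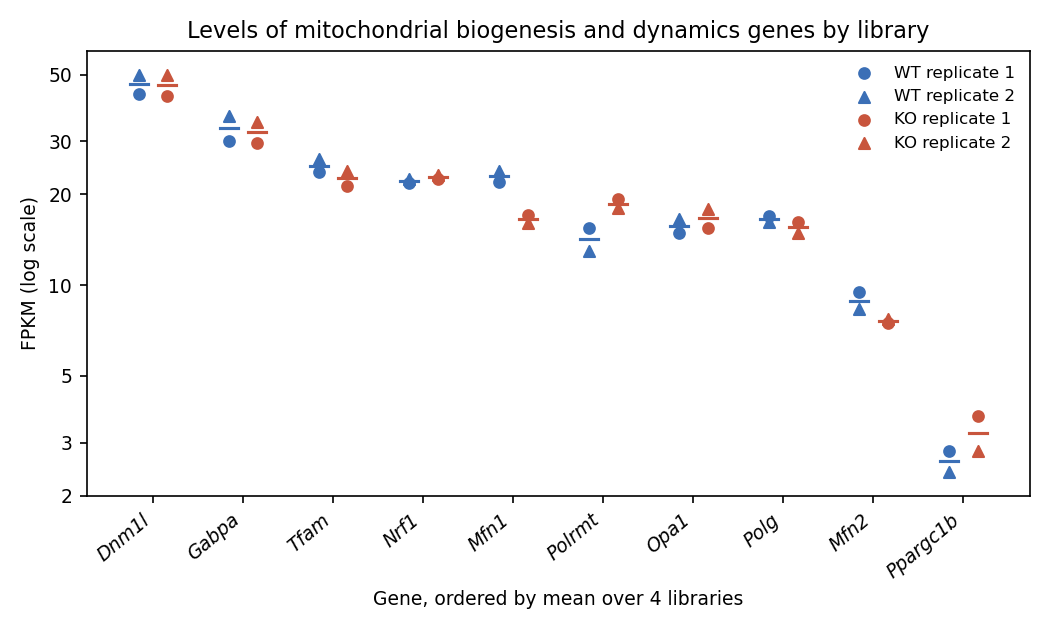
FPKM (log axis) of the 10 genes in each WT (blue) and KO (red) library, with circles for replicate 1, triangles for replicate 2 and a bar at the mean of each genotype. The genotypes lie apart for Mfn1 and Polrmt, narrowly apart for Mfn2 and Ppargc1b, and overlap for the other 6 genes.

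In the comparison of KO with WT, Mfn1 fell and none of the other 9 genes passed the test. The test was limma on log2(FPKM + 0.1) with Benjamini-Hochberg adjustment over 12990 features, of which 12.5% passed at an adjusted p of 0.05, with 6.85% rising and 5.6% falling. At that rule 0 of the 10 genes rose and 1 fell. At a change above 2-fold as well, 0 of the 10 passed, against 4.14% of all features, 2.72% higher and 1.42% lower. At an unadjusted p under 0.05, the limma count was 2, Mfn1 and Polrmt, against 29.6% of all features. The KO libraries lay wholly above the WT libraries for 2 genes, wholly below for 2 and overlapped for 6, while 58.8% of all features did not overlap, 27.0% with KO above and 31.7% with KO below. The 4 genes with a higher mean and the 6 with a lower mean had log2 fold changes from -0.47 to 0.39, with a median of -0.03 against -0.02 over all features. With FPKM rescaled to features with a symbol, the median of the 10 genes was 0.05. Their absolute log2 fold change had a median of 0.12, against 0.19 over all features. These medians were not matched for level, and most of the 10 genes lay above the middle of the tested features in level.

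For each of the 10 genes the 95% interval of the fold change lay within 2-fold in either direction, and for 7 of them within 1.5-fold. For 8 genes it included no change. The residual SD between replicates of these genes had a median of 0.12 on the log2 scale, the same as over all features. In bulk RNA, fewer cells of a type and less RNA per cell cannot be told apart.

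**Figure D2:**
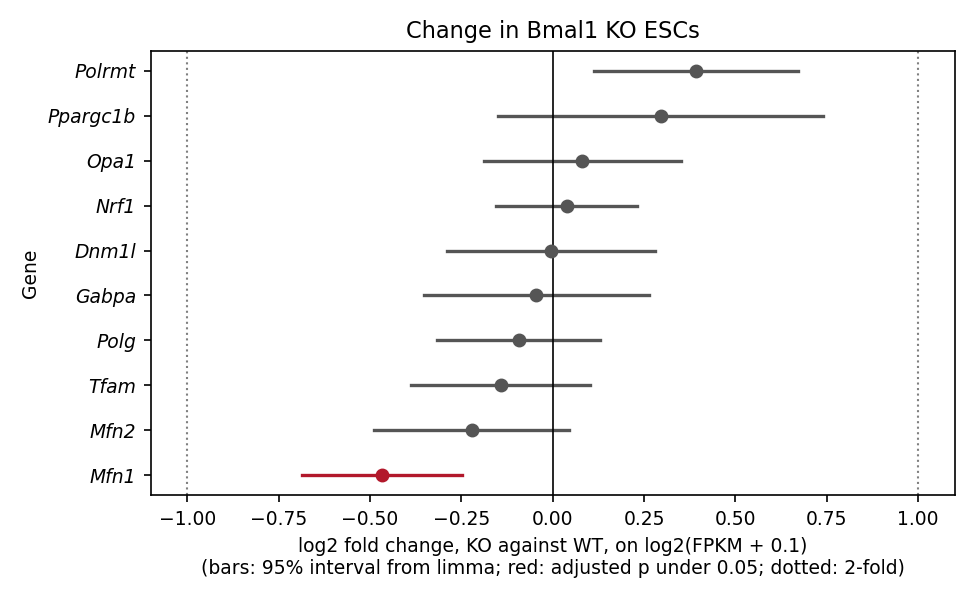
Log2 fold change of KO against WT for each gene (points) with its 95% interval from limma (bars). Mfn1, at -0.47, is drawn in red for an adjusted p under 0.05, and every interval stays within the dotted lines at 2-fold.

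**Figure D3:**
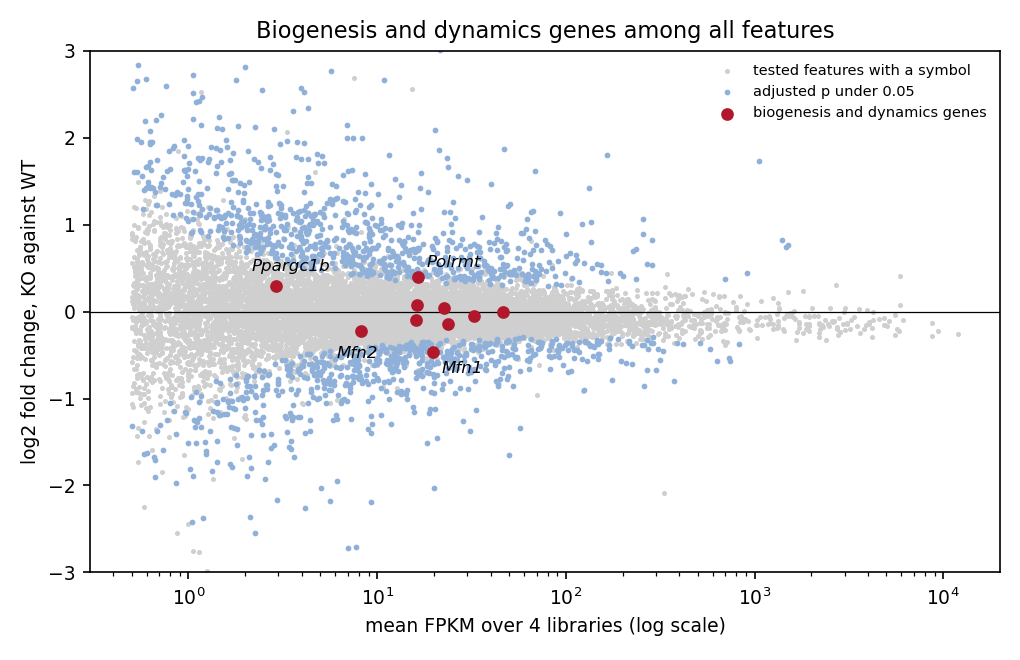
Log2 fold change against mean FPKM (log axis) for tested features with a symbol (grey), those with an adjusted p under 0.05 (pale blue) and the 10 genes (dark red). Of these features 16 lie beyond the axis limit of 3 and are not shown. The 10 genes sit between -0.47 and 0.39, near the middle of the cloud.

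Among the transcriptional regulators, Nrf1 and Gabpa differed least. Nrf1 was at 21.9 and 22.6 FPKM in WT and 22.5 and 23.1 in KO, which overlap. Its log2 fold change was 0.04 (SE 0.08, adjusted p = 0.782), with a 95% interval from -0.16 to 0.23. The gene lies on chr6:30047988-30153458.

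Gabpa, the DNA-binding subunit of the GABP factor, was at 30.2 and 36.4 FPKM in WT and 29.7 and 34.7 in KO. The 2 replicates of each genotype spread more than the genotypes did. Its log2 fold change was -0.05 (SE 0.12, adjusted p = 0.840), and its sign turned to 0.03 when FPKM were rescaled to features with a symbol. The row shares its coordinates with Atp5j, an ATP synthase subunit on the opposite strand at 431 to 445 FPKM, and 6.98% of the exon bases of Gabpa overlap that gene.

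Ppargc1b, a coactivator of the nuclear factors, was at 2.81 and 2.41 FPKM in WT and 3.67 and 2.81 in KO. The lower KO library all but equalled the higher WT library. Its mean was 2.61 ± 0.284 FPKM (SD, n = 2) in WT and 3.24 ± 0.608 (SD, n = 2) in KO, a log2 fold change of 0.30 (SE 0.18, adjusted p = 0.332). The interval, from -0.15 to 0.74, is the widest of the 10.

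Around these 3 genes, a list of 12 further regulators and coactivators had 11 tested features, with a median log2 fold change of -0.06. Of these 1 rose and 0 fell, against 6.85% and 5.6% of all tested features. The gene that rose was Nfe2l2, which encodes NRF2, the activator of antioxidant genes. It was at 23.3 and 26.4 FPKM in WT and 33.1 and 32.8 in KO, so the genotypes did not overlap, and its log2 fold change was 0.41 (SE 0.09, adjusted p = 0.0406). Its adjusted p was 0.137 without WT replicate 1, 0.0887 without KO replicate 1, 0.0781 without KO replicate 2, 0.0682 with no filter and 0.0938 without a variance trend, so that the call rests on those settings. Pprc1, a further coactivator of the PGC-1 family, was at 46.1 and 39.98 FPKM in WT and 40.6 and 37.0 in KO, with a log2 fold change of -0.15 (adjusted p = 0.386). Gabpb1, the partner subunit of GABPA, had a log2 fold change of 0.02 (adjusted p = 0.885), and Hcfc1, a cofactor shared by several of these factors, -0.07 (adjusted p = 0.665).

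Of the genes that act on mitochondrial DNA, Polrmt was the furthest from no change, without passing the test. Polrmt was at 15.5 and 13.0 FPKM in WT and 19.3 and 18.0 in KO. Both KO libraries were above both WT libraries. The means were 14.2 ± 1.79 (SD, n = 2) and 18.7 ± 0.893 FPKM (SD, n = 2), a ratio of 1.31 and a log2 fold change of 0.39 (SE 0.11) with a 95% interval from 0.11 to 0.67. The limma p was 0.0140 and the adjusted p 0.0808. Without WT replicate 1 the log2 fold change was 0.52 with an adjusted p of 0.0157, and without WT replicate 2 it was 0.27 with an adjusted p of 0.307, so the call depended on which WT library was kept.

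The Polrmt row also carries unusual coordinates. The gene itself spans chr10:79736123-79746581, but the row gives chr10:79697305-80369637, as do 42 other rows for genes of that region. The 34 of these that were tested had a median log2 fold change of 0.01 and a range of -0.46 to 0.78, with 17 of them higher in KO and 1 that rose. How reads were divided among them is not given in the sources used here, so the value for Polrmt is uncertain.

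Tfam was at 23.7 and 26.2 FPKM in WT and 21.3 and 23.9 in KO. The higher KO library lay just above the lower WT library. The means were 25.0 ± 1.74 and 22.6 ± 1.85 FPKM (SD, n = 2 each), with a log2 fold change of -0.14 (SE 0.10, adjusted p = 0.388) and an interval from -0.39 to 0.10.

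Polg, the catalytic subunit of the mitochondrial DNA polymerase, was at 17.0 and 16.2 FPKM in WT and 16.2 and 14.9 in KO. Its log2 fold change was -0.09 (SE 0.09, adjusted p = 0.540), within an interval from -0.32 to 0.13. Its row shares coordinates with Fanci, a DNA repair gene on the opposite strand that covers 8.57% of the exon bases of Polg. Fanci had a log2 fold change of 0.12 (adjusted p = 0.479).

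The 25 further genes found for the replication, transcription and nucleotide supply of mitochondrial DNA had 25 tested features, with a median log2 fold change of -0.10. Of these 2 rose and 1 fell, against 6.85% and 5.6% of all tested features, and 22 did not pass. The partners of the members were among those that did not pass. The transcription factor Tfb2m was at 11.5 and 12.9 FPKM in WT and 10.5 and 12.3 in KO (log2 fold change -0.10, adjusted p = 0.604). The accessory polymerase subunit Polg2, whose row shares its coordinates with others, had a log2 fold change of -0.10 (adjusted p = 0.599) and Peo1, the Twinkle helicase, of -0.13 (adjusted p = 0.383).

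The genes of that list that passed were 1 nuclease, 1 kinase and 1 carrier. Dna2, a nuclease and helicase of nuclear and mitochondrial DNA, was at 20.8 and 21.3 FPKM in WT and 16.8 and 16.1 in KO, where it fell by 0.36 on the log2 scale (SE 0.08, adjusted p = 0.0437). Leaving out any 1 of the 4 libraries raised its adjusted p to between 0.0955 and 0.153, as did 4 other settings (no filter, no variance trend, quantile normalization and rescaling to features with a symbol), to between 0.0551 and 0.0885. Slc25a36, a carrier of pyrimidine nucleotides, was at 38.4 and 41.8 FPKM in WT and 53.3 and 56.9 in KO (log2 fold change 0.46, SE 0.08, adjusted p = 0.0240), and its adjusted p was 0.0638 without KO replicate 2 and 0.0702 without a variance trend.

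Dguok, the mitochondrial deoxyguanosine kinase, was at 10.6 and 9.77 FPKM in WT and 16.5 and 14.8 in KO, a log2 fold change of 0.62 (SE 0.10, adjusted p = 0.0185). It lies in a stretch of chromosome 6 from Eif2ak3 to Gata2, chr6:70844522-88207032, in which 97 of 102 tested features with a symbol were higher in KO. The median log2 fold change of that stretch was 0.88, against -0.01 over the other 443 tested features of the chromosome that have a symbol. Nrf1 lies on the same chromosome outside the stretch, and the 20 tested neighbours of Nrf1 with a symbol had a median of -0.02.

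Of the fusion genes, Mfn1 fell, while Mfn2 and Opa1 did not pass the test. Mfn1 was at 22.1 and 23.9 FPKM in WT and 17.1 and 16.1 in KO. Both KO libraries lay well below both WT libraries, and the gap between the genotypes was wider than the spread within either. The means were 23.0 ± 1.26 and 16.6 ± 0.734 FPKM (SD, n = 2 each), a ratio of 0.723 and a log2 fold change of -0.47 (SE 0.09, adjusted p = 0.0266) with a 95% interval from -0.69 to -0.25.

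The call of Mfn1 was near the threshold. Over 14 alternatives its adjusted p ranged from 0.0107 to 0.0719 and was under 0.05 in 11. It was 0.0627 without WT replicate 2, 0.0719 without KO replicate 2 and 0.0659 without a trend of the variance with expression. The direction was the same under each of the 14. Mfn1 lies on chr3:32529465-32579239, and its 20 tested neighbours with a symbol had a median log2 fold change of 0.02.

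Mfn2, the second mitofusin, was at 9.47 and 8.31 FPKM in WT and 7.47 and 7.71 in KO. The groups did not overlap, but the WT libraries differed from each other by more than the gap between genotypes. The log2 fold change was -0.22 (SE 0.11, adjusted p = 0.234), with an interval from -0.49 to 0.04. Summed over both mitofusins, the level was 31.5 and 32.2 FPKM in WT and 24.6 and 23.8 in KO. This is a log2 difference of -0.40, for which an exact two-sided permutation test gave p = 0.333, the smallest that 2 against 2 libraries allow.

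The ratio of Mfn1 to Mfn2 was 2.33 and 2.87 in WT and 2.29 and 2.08 in KO. Mfn1 was the more abundant transcript in each of the 4 libraries. The log2 difference of the ratio was -0.25, again with the smallest possible exact permutation p of 0.333.

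Opa1, which fuses the inner membrane and keeps cristae closed, was at 14.9 and 16.5 FPKM in WT and 15.5 and 17.9 in KO. The groups overlapped. Its log2 fold change was 0.08 (SE 0.11, adjusted p = 0.665), with an interval from -0.19 to 0.35, and it was -0.02 without KO replicate 2.

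The 13 further genes found for fusion and for the processing of OPA1 protein gave 14 tested features, with Fbxo7 on 2 rows, and 0 passed, with a median log2 fold change of -0.06 and a range of -0.43 to 0.33. At the lower end was Oma1, the stress-activated protease that cuts OPA1, at 9.84 and 10.98 FPKM in WT and 8.29 and 7.14 in KO. Its groups did not overlap, and its log2 fold change was -0.43, with an interval from -0.72 to -0.14 and an adjusted p of 0.0737. Yme1l1, the other protease that cuts OPA1, was at 58.5 and 66.6 FPKM in WT and 55.1 and 64.7 in KO (log2 fold change -0.06, adjusted p = 0.736). The most abundant genes of the list were Phb2, a prohibitin that holds OPA1 processing in check, at 505 and 476 FPKM in WT and 455 and 412 in KO (adjusted p = 0.225), and the lipid transfer gene Prelid1 (log2 fold change -0.14, adjusted p = 0.251).

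The fission GTPase gene Dnm1l gave nearly equal values in the genotypes. It was at 43.0 and 49.9 FPKM in WT and 42.6 and 49.9 in KO. Each replicate number had nearly the same value in both groups. The means were 46.4 ± 4.87 and 46.3 ± 5.17 FPKM (SD, n = 2 each), with a log2 fold change of -0.01 (SE 0.12, adjusted p = 0.978) and an interval from -0.29 to 0.28. Under the 3 other scalings its log2 fold change was 0.0016, 0.024 and 0.067.

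The level of Dnm1l relative to Opa1 was 2.88 and 3.02 in WT and 2.76 and 2.80 in KO. The KO values were lower than both WT values by a small margin. The log2 difference was -0.09, with an exact permutation p of 0.333, the smallest that 2 against 2 libraries allow.

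Among 14 further genes of the fission machinery, 13 were tested and 0 passed, with a median log2 fold change of 0.05. Mff, the outer membrane receptor that recruits DNM1L, was at 32.5 and 35.6 FPKM in WT and 40.3 and 44.8 in KO. Its groups did not overlap, and its log2 fold change was 0.32, with an interval from 0.09 to 0.55 and an adjusted p of 0.0833. Fis1, a second outer membrane adaptor and the most abundant gene of the list, was at 111 and 124 FPKM in WT and 120 and 112 in KO (log2 fold change -0.02, adjusted p = 0.880). March5, a ubiquitin ligase that acts on fission and fusion proteins, had a log2 fold change of -0.16 (adjusted p = 0.257).

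Over 7 lists of related mitochondrial genes, 9 of 120 tested features passed, which is 7.50% against 12.5% of all features. They were 7 that rose and 2 that fell, and the median over the 120 was -0.06. The lists for protein import, fission and fusion had 0 that passed. These counts depended on the model. With a term for the replicate number (replicate block), 41 of the 120 had an adjusted p under 0.05, against 31.2% of all features. The lists for protein import, fission and fusion then had 11, 4 and 6.

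**Figure D4:**
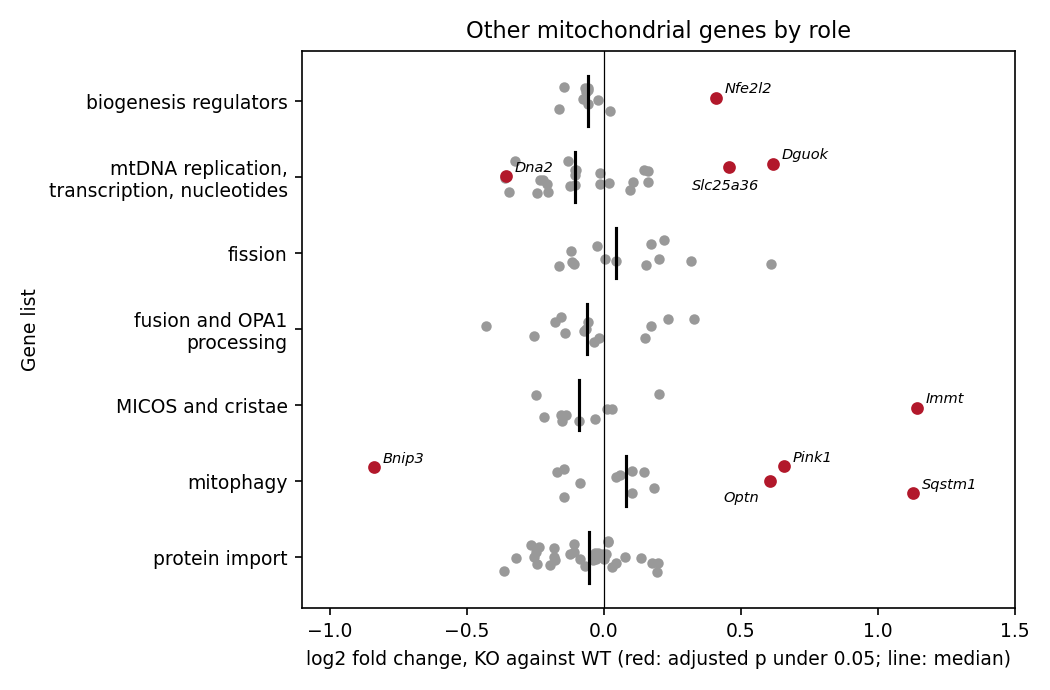
Log2 fold change of KO against WT for the tested features of 7 lists by role, with points spread vertically for legibility, named red points for an adjusted p under 0.05 and a black line at each list's median. The medians lie between -0.10 and 0.08, and Immt and Sqstm1 lie furthest to the right.

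The list for cristae and the MICOS complex, which shapes the inner membrane together with OPA1, had 11 tested genes. Of these 1 rose and 0 fell, against 6.85% and 5.6% of all tested features. Immt, the core MICOS subunit mitofilin, was at 37.9 and 43.8 FPKM in WT and 84.8 and 95.8 in KO, a log2 fold change of 1.14 (SE 0.11, adjusted p = 0.00480). Immt lies in the raised stretch of chromosome 6. Of its 20 tested neighbours with a symbol 16 rose, and the median log2 fold change of the 20 was 0.93. Immt and Dguok passed under each of the 14 alternatives. Samm50, an outer membrane partner of the complex, was at 239 and 241 FPKM in WT and 251 and 234 in KO (adjusted p = 0.922).

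The mitophagy list had 14 tested genes, of which 3 rose and 1 fell, against 6.85% and 5.6% of all tested features. The number that passed was 1 with no filter and 2 without a variance trend. Sqstm1, the autophagy receptor p62, was at 58.6 and 57.6 FPKM in WT and 133 and 122 in KO, a log2 fold change of 1.13 (SE 0.08, adjusted p = 0.00226), and it passed under each of 14 alternatives. Bnip3, a receptor on the outer membrane that low oxygen induces, was at 9.94 and 13.3 FPKM in WT and 6.13 and 6.64 in KO, and fell by 0.84 on the log2 scale (SE 0.16, adjusted p = 0.0253). Its adjusted p was 0.0612 with no filter and 0.0619 without a variance trend.

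Pink1, the kinase that marks damaged mitochondria, was at 2.98 and 2.42 FPKM in WT and 4.42 and 4.19 in KO (log2 fold change 0.66, SE 0.15, adjusted p = 0.0434). Optn, an autophagy receptor for marked mitochondria, was at 2.80 and 2.47 FPKM in WT and 4.01 and 4.10 in KO (log2 fold change 0.61, SE 0.13, adjusted p = 0.0403). Neither group overlapped the other for either gene, but both calls were lost without WT replicate 2, without KO replicate 1 and without KO replicate 2. The adjusted p was then 0.0996, 0.0954 and 0.0612 for Pink1, and 0.102, 0.0843 and 0.0984 for Optn. With no filter it was 0.0925 for Pink1 and 0.0860 for Optn, and without a variance trend 0.0617 for Pink1.

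All 32 genes found for mitochondrial protein import were tested, and 0 passed, with 11 higher and 21 lower in KO and a median log2 fold change of -0.05. They were the most abundant of the lists. The matrix chaperone Hspe1 was at 924 and 1000 FPKM in WT and 865 and 917 in KO (log2 fold change -0.11, adjusted p = 0.439), and its partner Hspd1 at 675 and 768 in WT and 591 and 680 in KO (log2 fold change -0.18, adjusted p = 0.318).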

How the data were processed

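Total RNA of 2 WT and 2 Bmal1 KO ESC libraries was isolated with TRIzol and depleted of ribosomal RNA. Per the submitters' processing notes and methods, the authors aligned reads to GRCm38 (mm10) with TopHat2 2.1.1 and Bowtie2 2.3.0, and the deposited values are FPKM per feature from Cufflinks 2.2.1. Strandedness is not given in the sources used here. FPKM keep no read numbers, and with library depth unknown, precision was judged from the spread between replicates.

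FPKM were compared as log2(FPKM + 0.1) where the mean over the libraries reached 0.5, which held for 12990 features and left out 6655. On this scale fold changes of low genes are understated. The genotypes were compared with limma 3.58.1 (R 4.3.3), using a variance trend and Benjamini-Hochberg adjustment over all tested features, after tests on simulated data. Each adjusted p comes from this fit, and "rose" and "fell" mean an adjusted p under 0.05. In the simulated data, 0 of 50 features changed by 1.25-fold and 0 of 50 changed by 1.5-fold passed. Of 48 changed by 2-fold 17 passed, and of 48 changed by 4-fold 39 passed. Fewer features were changed there than passed here. The spread of each simulated feature was also drawn from those of all features, whatever its level. These shares therefore need not hold for the real data, where Mfn1 passed at a change of 1.38-fold. Ratios and sums were tested by exact two-sided permutation, which cannot give a p under 0.333 with 2 against 2 libraries. The alternatives were other pseudocounts (1, 0.01), filters (none, 1), 3 scalings, no variance trend, a replicate block, summed rows of a symbol, and leaving out each library. Merged symbols were split, 1 was added to start coordinates, and gene spans are those of GENCODE for GRCm38. The members and gene lists were chosen with earlier results of these data known. All members and their direct partners were named, with up to 4 genes of each list that passed (by absolute fold change) or, where under 2 passed, the most abundant. Ppargc1a, the transcripts encoded in mitochondrial DNA and list genes without a matching symbol were not analysed here.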

Additional observations from a re-analysis of the deposited data

How the results depend on the processing

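Of 140 refits of the 10 genes under 14 alternatives, 126 kept the direction and the side of the threshold, and 7 genes kept their direction throughout. The number of genes with an adjusted p under 0.05 was 1, against 0 without a variance trend, 2 with the replicate block and 0 to 2 when a library was left out. Mfn1 stayed at -0.47 without a variance trend, with an adjusted p of 0.0659, and ranged from -0.52 to -0.41 without a library. Polrmt stayed at 0.39 with the replicate block, with an adjusted p of 0.0132, and ranged from 0.27 to 0.52 without a library. Directions turned for 3 genes close to no change. Gabpa was 0.028 when scaled to features with a symbol and -0.18 to 0.0885 without a library. Dnm1l was 0.0016 with median-of-ratios scaling, 0.024 with quantile normalization, 0.067 when scaled to features with a symbol and -0.12 to 0.11 without a library. Opa1 was -0.0226 to 0.18 without a library. The median of the 10 genes was 0.05 when scaled to features with a symbol, which took unequal shares of the libraries, and -0.08 to 0.07 without a library. Over all features, 538 had an adjusted p under 0.05 and a change above 2-fold, against 231 with a pseudocount of 1, which shrinks folds of low genes, and 605 to 820 without a library. Of the 120 tested features in the 7 lists, 9 passed, against 4 with no filter, 4 without a variance trend, 41 with the replicate block and 5 to 11 without a library. With the replicate block 4052 features (31.2%) had an adjusted p under 0.05, against 1618. The labels tie the numbers to no shared culture, day or batch. Across features the deviations of same-numbered libraries had a Pearson r of 0.071 and a Spearman rho of 0.387, and the order of replicates 1 and 2 was the same in both genotypes for 8 of the 10 genes and 69.7% of all features. With 2 pairs these values do not settle whether the numbers pair the libraries. Other causes were not tested. With 2 libraries a genotype and no read numbers, a gene that did not pass may still have changed within the interval given for it.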
